A study of Sus scrofa with 4 samples.

Results

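The cornified envelope genes described here were IVL, TGM1, SBSN, KRTDAP, CNFN, SPRP, CASP14, KRT1 and KRT10. They are 9 of 30282 pig genes counted in every library. All features of a gene, including those the deposited annotation marks as isoforms or as extensions past the 3' end, were summed to 1 value per cell. The 9 genes were chosen by their measured levels, which earlier results of these data had shown to be higher in organoids than in primary pancreas, so their organoid-to-primary differences are given as a description without a test.

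Single-cell RNA sequencing was performed on porcine pancreatic ductal organoids (PPDO, 2 libraries) and on dissociated primary pig pancreas (2 libraries). PPDO are three-dimensional cultures that the study started from hand-picked pancreatic ducts and kept in an extracellular matrix with medium that supplied WNT3A, R-spondin, noggin, EGF, FGF10, prostaglandin E2, gastrin, nicotinamide, the TGF-beta receptor inhibitor A83-01 and the kinase inhibitor Y-27632, among other additives. In the study's terms, 1 line came from a late postnatal and the other from an adult pig, at different passages. Its methods, however, name the 2 organoid samples by postnatal days that both fall within its late postnatal range, and this difference is not explained there. The study states that most cells had by then moved to a less mature duct state. No label assigns a line to a library, so age, passage and animal cannot be told apart between PPDO 1 and PPDO 2. The primary libraries came from a wild-type pig and an INS-eGFP transgenic pig, in which the insulin promoter drives eGFP in beta cells. Both pigs had the same age, late postnatal by the study's naming, and were processed on different days. Assuming that the titles number the primary samples as the study's methods do, primary pancreas 1 came from picked ducts of the wild-type pig, and primary pancreas 2 from a pool of lectin-sorted (DBA+) duct cells, eGFP-sorted cells and unselected cells of the transgenic pig. Live cells were sorted for all 4 libraries. Only the organoids had been cultured, so culture and group cannot be told apart either.

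After filtering, 8885 and 7337 PPDO cells remained with a median of 34176 and 34459 unique molecular identifiers (UMIs, counted molecules). In primary pancreas 5671 and 4261 cells remained with a median of 10169 and 23651 UMIs. Levels are given as CPM, the UMIs of a gene per 1000000 UMIs of the same cells. Over all their cells, these PPDO did not carry the defining marker set of duct cells at primary level. The study reported CFTR, SOX9 and KRT7 protein in early-passage PPDO. It also stained a late postnatal line for CFTR and SOX9 at a passage it counts as transitioning, and describes the protein pattern as alike across developmental stages. All 12 ductal markers measured were lower in both PPDO libraries than in both sums of primary ductal-like cells. Those primary cells had been named from the same marker list, which raises their side of this comparison. PPDO values here are over all cells of a library, and SPP1 and WFDC2, 2 of the 12, were among the leading genes of 1 PPDO cluster described below. CFTR was at 1.04 and 0.636 CPM in PPDO and at 940 and 795 CPM in ductal-like cells. SOX9 was at 3.30 and 1.44 CPM against 321 and 352 CPM, while KRT7 was at 389 and 384 CPM against 568 and 596 CPM. Lists of markers for other pancreatic cell types summed to between 11.2 and 88.4 CPM in PPDO, apart from the schwann list at 3646 and 3509 CPM, of which ERBB3 alone gave 3636 and 3499 CPM. Any 2 libraries shared between 4 and 18 cell barcodes, and the 21 and 12 primary cells with the barcode of a PPDO cell held 1 UMI of CASP14, 1 UMI of KRTDAP and otherwise only UMIs of KRT10 among the 9 genes.

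The cornified envelope is the insoluble protein shell that replaces the plasma membrane of epidermal cells and of other layered squamous cells as they complete differentiation. Precursors such as involucrin and the small proline-rich proteins are laid down under the membrane and are joined by transglutaminases, while the keratin pair KRT1 and KRT10 fills the cell and proteases of the late programme process its contents. Pancreatic ducts are lined by a simple epithelium that does not form such a shell.

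Members lay on 6 chromosomes of the pig build Sscrofa11.1, by the RefSeq gene table. IVL (ENSSSCG00000006595, chr4:96656033-96658737) and SPRP (ENSSSCG00000022269, chr4:96588991-96590696) lay 65.3 kb apart with 1 gene model between them. SBSN (ENSSSCG00000033702, chr6:44960693-44966592) and KRTDAP (ENSSSCG00000002882, chr6:44932195-44935921) lay 24.8 kb apart on either side of DMKN. CNFN (ENSSSCG00000027022) was at chr6:49568224-49574070, TGM1 (ENSSSCG00000001993) at chr7:75030123-75045157, CASP14 (ENSSSCG00000013835) at chr2:62522294-62531594, KRT1 (ENSSSCG00000000251) at chr5:18012922-18018582 and KRT10 (ENSSSCG00000028522) at chr12:21641263-21645642. SPRP has the synonym SPRR1B and belongs to a family of closely similar genes, so its UMIs may be shared with relatives.

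Among the envelope precursors, IVL, which encodes involucrin, the early scaffold of the envelope, was at 41.7 CPM in PPDO 1 and 101 CPM in PPDO 2 (71.3 ± 41.8, mean ± SD, n = 2). Primary ductal-like cells, 2309 and 1188 cells named from duct markers, had 2 UMIs of IVL in primary pancreas 1, all in the extension past the gene, and 0 UMIs in primary pancreas 2. SPRP, a small proline-rich precursor, was at 62.6 and 162 CPM (112 ± 70.5, n = 2). No UMI of SPRP was found in any of the primary cells, and 3 UMIs, the limit that a count of 0 allows, put PPDO at least 529-fold higher than the ductal-like cells. CNFN, cornifelin, another envelope component, was at 8.17 and 31.6 CPM (19.9 ± 16.5, n = 2). The ductal-like cells had 34 and 19 UMIs of CNFN (0.774 and 0.749 CPM), all of them in the extension, whereas the extension held 8.05% and 2.56% of CNFN UMIs in PPDO.

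KRTDAP and SBSN encode secreted proteins of differentiating keratinocytes. KRTDAP, keratinocyte differentiation-associated protein, was at 351 and 853 CPM (602 ± 355, n = 2), and 4 UMIs, all in the extension, were found in each of the ductal-like sums. SBSN, suprabasin, was at 3.01 and 7.44 CPM (5.23 ± 3.13, n = 2), with 2 and 0 UMIs in ductal-like cells. UMIs were counted near the 3' end, so such levels compare a gene between samples and not one gene with another.

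Of the enzymes, TGM1, the membrane-bound transglutaminase that cross-links the precursors, was at 4.67 and 11.5 CPM (8.10 ± 4.85, n = 2). It was at 1.5 and 0.946 CPM in ductal-like cells, a ratio of means of 6.61. CASP14, the caspase of cornifying cells, was at 1.70 and 6.02 CPM (3.86 ± 3.06, n = 2) and at 0.0911 and 0.276 CPM in ductal-like cells, from 4 and 7 UMIs.

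The keratin partners differed from each other. KRT1 was at 4.2 and 10.5 CPM in PPDO (7.36 ± 4.46, n = 2), with 0 and 1 UMI in ductal-like cells. KRT10 was at 114 and 77.4 CPM in PPDO (95.7 ± 25.8, n = 2) and at 28.0 and 46.7 CPM in ductal-like cells, a ratio of means of 2.56. For all 9 genes both PPDO values lay above both ductal-like values, a separation that the choice of the genes had used. In the edgeR quasi-likelihood comparison of PPDO with ductal-like sums 22.8% of 23556 genes tested were called higher and 20.9% lower at a false discovery rate (FDR) under 0.05, and nothing is read from the position of the 9 genes in it.

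**Figure D1:**
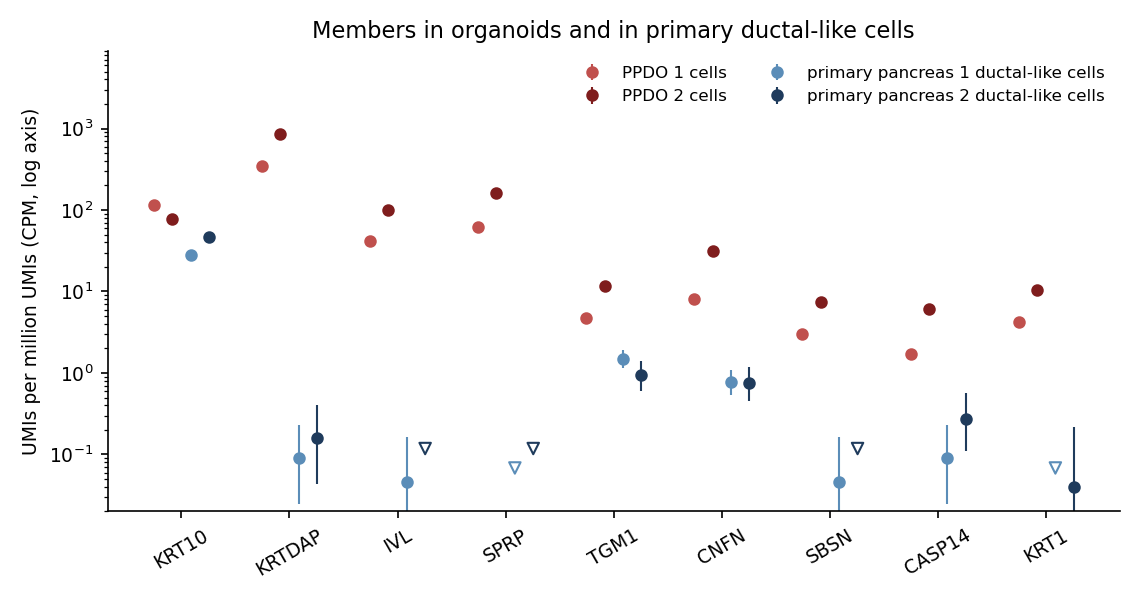
CPM of the 9 genes on a log axis in PPDO 1, PPDO 2 and both ductal-like sums, 1 point per library with an exact Poisson 95% interval that covers counting error only, and open triangles at the level of 3 UMIs where no UMI was found. PPDO points lie above primary points for every gene, and the gap is narrow for KRT10, at 77.4 to 114 CPM against 28.0 to 46.7 CPM.

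Within the primary libraries no cell class carried the group as a set. IVL, SBSN and KRT1 had between 2 and 4 UMIs in each whole primary library, and those of IVL and KRT1 were all in extensions. KRTDAP had 33 and 25 UMIs, CASP14 had 29 and 32 UMIs and CNFN had 98 and 110 UMIs, spread over several classes. The 5 primary cells with the most UMIs of a member other than KRT10 held that member alone, KRT10 aside. TGM1 reached 13.4 CPM in immune-like cells of primary pancreas 1, above its 4.67 CPM in PPDO 1, from 78 UMIs of which 40 lay in 1 cell, while immune-like cells of primary pancreas 2 had 3 UMIs. One immune-like cell held 8 UMIs of KRTDAP and 1 schwann-like cell held 11 UMIs of CASP14. KRT10 was found in every named class except the 1 schwann-like cell of primary pancreas 2, at 9.13 and 23.0 CPM in acinar-like cells, 31.9 and 42.6 CPM in endocrine-like cells and 21.6 and 29.8 CPM in endothelial-like cells. KRT10 was thus the member with the most primary UMIs, and TGM1 and CNFN were also found in several primary classes.

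Shares of cells were compared at a fixed depth. After each cell was thinned to 3000 UMIs, IVL was found in 5.43% and 8.39% of PPDO cells and in 0% and 0.0235% of primary cells. KRTDAP was found in 8.95% and 15.1% of PPDO cells and in 0.177% and 0.117% of primary cells. KRT10 was found in 23.9% and 17.4% of PPDO cells and in 6.64% and 13.2% of ductal-like cells.

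All members except KRT10 were higher in PPDO 2 than in PPDO 1. The ratio of PPDO 2 to PPDO 1 was 2.42 for IVL, 2.59 for SPRP, 3.86 for CNFN, 2.43 for KRTDAP, 2.47 for SBSN, 2.47 for TGM1, 3.55 for CASP14 and 2.50 for KRT1. KRT10 went the other way with a ratio of 0.680. The ratio of KRT1 rests on 1 PPDO 1 cell, without which KRT1 in PPDO 1 was at 0.701 CPM. Of 14061 genes at 1 CPM or more in PPDO, 1.40% had a ratio over 2, and the median ratio was 0.977. Each organoid line is 1 library, so the difference between the lines has no replicate and no test was made.

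To place these genes within the organoids, PPDO cells were clustered with the 9 members left out of the clustering. Of the 9 clusters, cluster 4, led by KRT23, SPINK5, KLK7, DSG1 and DMKN, held 759 and 694 cells. It took over 70% of the UMIs of 7 members in both libraries. KRT1 was 1 of the 7 by UMIs, but at 10000 UMIs per cell cluster 4 held 6 of the 19 KRT1 cells of PPDO 1 and 19 of the 41 of PPDO 2. Leaving cluster 4 aside, KRTDAP, SPRP, CNFN, CASP14, SBSN, IVL, KRT1 and KRT10 had their highest CPM in both libraries in cluster 7, which S100A8, S100A12, KLK8 and CSTA led and which held 216 and 280 cells (median 6584 and 20704.5 UMIs, against 43485 and 42574 in cluster 4, with 86 and 238 cells at 10000 UMIs or more). By UMIs it was not always next, since cluster 2 held 12.8% and 13.3% of the IVL UMIs against 3.5% and 6.12% in cluster 7.

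In cluster 4, KRTDAP stood at 2932 and 6448 CPM, against 9.41 and 19.4 CPM in cluster 0, which CXCL14 and LGR6 led. SPRP stood at 503.6 and 1181 CPM in cluster 4 and at 683 and 869 CPM in cluster 7. CNFN likewise was higher in cluster 7 than in cluster 4 of PPDO 1 (101 against 62.4 CPM) and lower in PPDO 2 (171 against 234 CPM). KRT1 was lower in cluster 7 than in cluster 4 of PPDO 1 (21.4 against 37.3 CPM) and higher in PPDO 2 (80.5 against 74.4 CPM). SBSN was at 26.7 and 59.4 CPM in cluster 4 and at 4.62 and 11.2 CPM in cluster 7, and cluster 4 held 93.7% and 90.2% of its UMIs.

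TGM1 and IVL had further sites. TGM1 was at 23.3 and 70.8 CPM in cluster 4 and at 21.8 and 13.4 CPM in cluster 8, which SPP1, WFDC2 and MUC13 led, while cluster 7 had 5.04 and 17.9 CPM of TGM1. At 10000 UMIs per cell, 18.7% and 14.7% of cluster 8 cells had TGM1, against 19.1% and 39.6% in cluster 4 and 0.859% and 1.95% in cluster 0. IVL was at 279 and 654 CPM in cluster 4, at 49.8 and 73.0 CPM in cluster 2, which had PTGS2 and IGFBP6 among its leading genes, and at 31.8 and 41.1 CPM in cluster 3, which ADM and EGLN1 led. It was at 1.54 and 2.47 CPM in cluster 0. In cluster 8 IVL was at 21.3 and 34.9 CPM. SPRP was at 14.5 and 15.9 CPM in cluster 2 and at 10.4 and 10.5 CPM in cluster 3, against 1.63 and 3.47 CPM in cluster 0. SBSN, CNFN, CASP14 and KRT1 were at no more than 1.77 CPM in clusters 2, 3 and 8. The cross-linking enzyme and the early scaffold were thus found in clusters that held little of these 4 members. KRT10 was found there too, and cluster sums do not show which genes shared a cell.

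KRT1 sat in few cells. A total of 46 PPDO 1 cells and 105 PPDO 2 cells had a UMI of KRT1. In PPDO 1, 1 cell held 1054 of the 1265 KRT1 UMIs. In PPDO 2 the highest cell had 629 UMIs, and 24 cells with 10 or more UMIs held 96.2% of them. In those 24 cells KRTDAP was at 29594 CPM and SPRP at 4458 CPM, and CASP14 was found in 87.5% of them against a share of 4.39% over all PPDO 2 cells at full depth. The 5 cells of PPDO 1 with 10 or more KRT1 UMIs all held IVL, KRTDAP, SPRP, CASP14 and KRT10. KRT10 was at 2757 CPM in those 5 cells and at 112 CPM in the other cells of PPDO 1, and in PPDO 2 it was at 1706 and 72.4 CPM. The KRT1 level of PPDO 1 thus rests on 1 cell.

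KRT10 was broad. It was between 56.1 and 271 CPM in each of the 9 clusters of PPDO 1 and between 47.3 and 207 CPM in PPDO 2, with the highest value in cluster 4 in both. Cluster 4 held 25.1% and 30.2% of its UMIs.

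**Figure D2:**
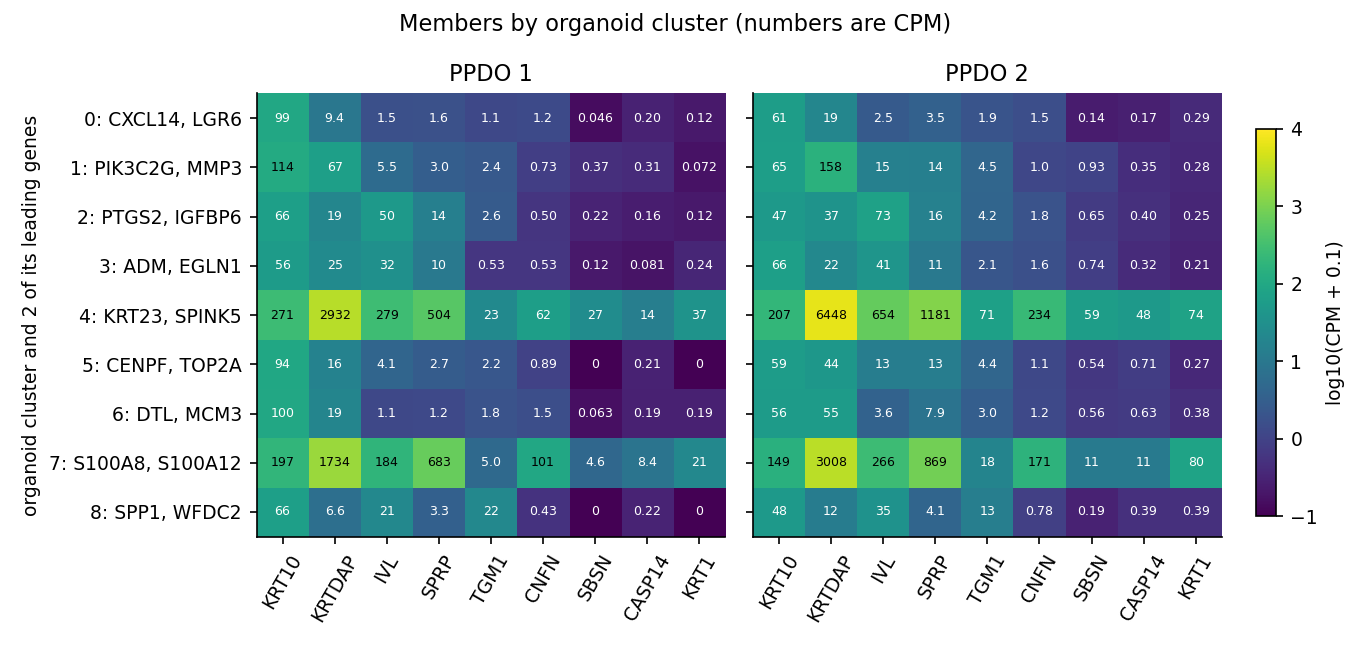
CPM of the 9 genes (columns) in the 9 organoid clusters (rows, each with 2 of its leading genes) of PPDO 1 and PPDO 2, with colour on a log10 scale after adding 0.1 CPM. Clusters 4 and 7 carry most members, KRTDAP reaching 2932 and 6448 CPM in cluster 4, while KRT10 is found in every cluster, IVL also in clusters 2 and 3 and TGM1 also in cluster 8.

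Free RNA in the droplets gives every cluster a low share of an abundant gene, and a single source keeps its genes in 1 ratio. SPRP had 17.2 and 18.3 UMIs per 100 KRTDAP UMIs in cluster 4 and 17.3 and 17.9 in cluster 0, where KRTDAP was found in 7.17% and 13.8% of cells. Ratios to KRTDAP in cluster 0 were higher than in cluster 4 for KRT10 (1055 and 317 against 9.23 and 3.21), CNFN (12.9 and 7.54 against 2.13 and 3.63), TGM1 (11.8 and 9.61 against 0.796 and 1.10), CASP14 (2.09 and 0.887 against 0.464 and 0.750, from 17 and 12 UMIs in cluster 0) and IVL (16.4 and 12.7). They were lower for SBSN (0.492 and 0.739 against 0.912 and 0.922, from 4 and 10 UMIs in cluster 0) and similar for KRT1 (1.23 and 1.48 against 1.27 and 1.15, from 10 and 20 UMIs). IVL had 9.51 and 10.1 UMIs per 100 KRTDAP UMIs in cluster 4, 258 and 198 in cluster 2 and 323 and 284 in cluster 8. TGM1 had 0.796 and 1.10 in cluster 4 and 331 and 110 in cluster 8. Cluster 1, led by PIK3C2G, MMP3 and KRT15, had KRTDAP at 67.1 and 158 CPM, with 4.50 and 8.88 SPRP UMIs per 100 of KRTDAP. The part of free RNA in the low values of the other clusters was not tested.

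The share of PPDO cells with each gene was then compared at 10000 UMIs per cell, with exact Clopper-Pearson 95% intervals for counting error. A single UMI counted as found, without correction for free RNA, whose part was not tested. KRT10 was found in 57.6% (56.5 to 58.6%) and 44.1% (43.0 to 45.3%) of cells. KRTDAP followed with 14.9% (14.1 to 15.7%) and 25% (24.0 to 26.0%), and IVL with 9.81% (9.18 to 10.5%) and 13.5% (12.7 to 14.3%). SPRP was found in 3.71% and 7.6% of cells, TGM1 in 3.56% and 6.55%, CNFN in 1.94% and 4.36%, SBSN in 1.53% and 3.92%, CASP14 in 0.658% and 2.46% and KRT1 in 0.227% and 0.573%. The order was the same in both libraries for all 36 pairs of members. Neighbours in the order were not always apart. In PPDO 1 the intervals of SPRP (3.31 to 4.13%) and TGM1 (3.18 to 3.98%) overlapped, as did those of CNFN (1.65 to 2.26%) and SBSN (1.28 to 1.82%). In PPDO 2 SPRP (6.99 to 8.23%) and TGM1 (5.99 to 7.15%) overlapped, as did CNFN (3.90 to 4.86%) and SBSN (3.49 to 4.40%). Counting a gene as found from 2 UMIs gave lower shares, 25.2% and 13.7% for KRT10, 6.84% and 12.2% for KRTDAP and 5.48% and 8.29% for IVL, and put TGM1 (0.705% and 2.02%) below CNFN (0.909% and 2.64%).

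Such an order follows abundance in part, because a gene with more molecules is found in more cells. Each member was therefore thinned to the same total over all cells at full depth, 511 UMIs in PPDO 1 and 1580 UMIs in PPDO 2, which were the totals of CASP14. Before that, full depth gave 85.1% and 80.0% of cells for KRT10, 29.8% and 47.9% for KRTDAP, 15.3% and 22.6% for IVL, 8.32% and 13.9% for TGM1 and 7.36% and 15.1% for SPRP, and 35 of the 36 pairs were ordered in both libraries as at 10000 UMIs per cell. At the same total KRT10 led with 5.25% and 16% of cells, followed by TGM1 with 4.15% and 10.0%, IVL with 3.13% and 7.30%, SBSN with 2.60% and 6.78% and KRTDAP with 2.35% and 6.09%. CNFN had 1.61% and 3.87%, CASP14 1.55% and 4.39% and SPRP 1.44% and 3.94%. KRT1 stayed last with 0.263% and 1.01%. Of the 36 pairs, 26 kept in both libraries the order they had at full depth, and 34 were ordered alike in both libraries. At equal abundance the molecules of TGM1 were thus spread over more cells than those of KRTDAP, and those of SPRP over fewer than those of IVL.

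**Figure D3:**
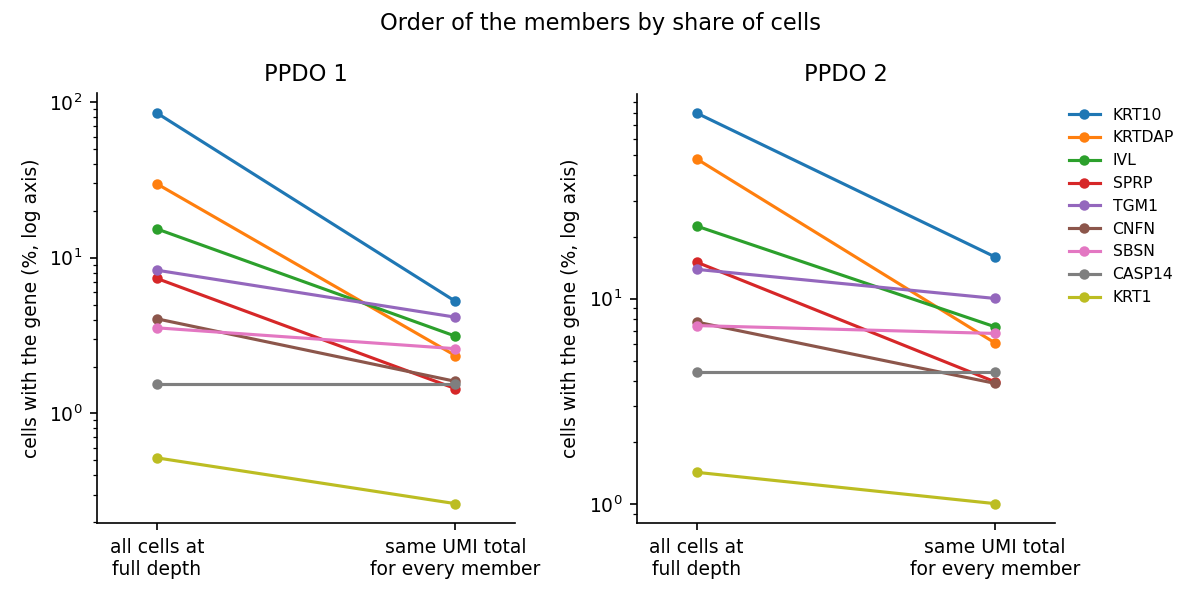
Percent of cells with each gene on a log axis in PPDO 1 and PPDO 2, over all cells at full depth (left end of each line) and after every gene was thinned to the same UMI total in the same cells (right end). Lines of KRTDAP and IVL fall below those of TGM1, which end at 4.15% and 10.0%, while KRT10 is first and KRT1 last at both ends.

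Cells with SBSN or CASP14 mostly had KRTDAP too. Of SBSN cells, 86.7% in PPDO 1 and 89.0% in PPDO 2 also had KRTDAP, whereas 8.92% and 14% of KRTDAP cells had SBSN. Of CASP14 cells, 87.3% and 90.9% had KRTDAP, and 63.6% and 73.9% had IVL. Of IVL cells, 4.27% and 13.4% had CASP14. Of TGM1 cells, 45.6% and 61.4% had KRTDAP and 38.9% and 54.8% had IVL. KRTDAP was found in 35.2% and 52.1% of IVL cells, 54.8% and 67.3% of SPRP cells, 59.3% and 75.3% of CNFN cells and 63.2% and 63.4% of KRT1 cells. The asymmetry within a pair equals the ratio of the shares, so it gives breadth and no time, and a snapshot of cells shows no order of onset by itself.

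How much more often a pair shared a cell than the product of its shares gives was highest among rare members and lower with KRT10. This value cannot exceed 1 divided by the share of the more widely found gene, so breadth limits it for KRT10. CASP14 with KRT1 gave 56.0 and 19.8 times, from 7 and 20 cells with both. For CASP14 with SBSN it was 28.5 times in PPDO 1 and 14 times in PPDO 2. For CASP14 with CNFN it was 23.5 and 14.1 times, and for KRTDAP with IVL 2.37 and 2.09 times. KRT10 with IVL gave 0.934 and 1.01 times, KRT10 with CASP14 1.45 and 1.57 times and KRT10 with KRT1 1.28 and 1.71 times. Of CASP14 cells, 83.6% and 69.3% had KRT10. These values are descriptions of cells from 1 library each and carry no test.

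Of the cells at this depth, 32.3% of PPDO 1 and 36.2% of PPDO 2 had none of the 9 genes and 50.9% and 41.3% had 1 of them. All 9 genes were found together in 2 and 6 cells. A doublet score over 0.25 was found in 1.05%, 1.16% and 0% of PPDO 1 cells with 3, 4 and 5 members, against 0.925% and 1.43% of those with 0 and 1, and in 3.21%, 3.88% and 2.25% of PPDO 2 cells with 3, 4 and 5 members, against 1.16% and 0.913% of those with 0 and 1, and in no cell with 6 or more members in either library. The share of most genes was higher in cells with more other members, counted here without KRT10. In PPDO 2 cells with 5 other members, KRTDAP was found in 100%, IVL in 90.9%, SPRP in 79.3%, CNFN in 71.9%, TGM1 in 69.1%, SBSN in 61.1%, CASP14 in 41.9% and KRT1 in 4.71%. In PPDO 1 cells with 5 others the values were 95.8% for KRTDAP, 88.0% for IVL, 85.2% for SPRP, 71.4% for TGM1, 68.8% for CNFN, 51.4% for SBSN and 23.5% for CASP14. Cells with 1 other member had IVL in 13.8% and 12.6% and SPRP in 3.98% and 5.38%. KRT10 was found in 57.1% and 42.9% of cells that had no other member and in 78.8% and 52.4% of those with 5. In PPDO 2 it stayed between 42.9% and 55.1% from 0 to 5 others and reached 79.2% at 7.

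**Figure D4:**
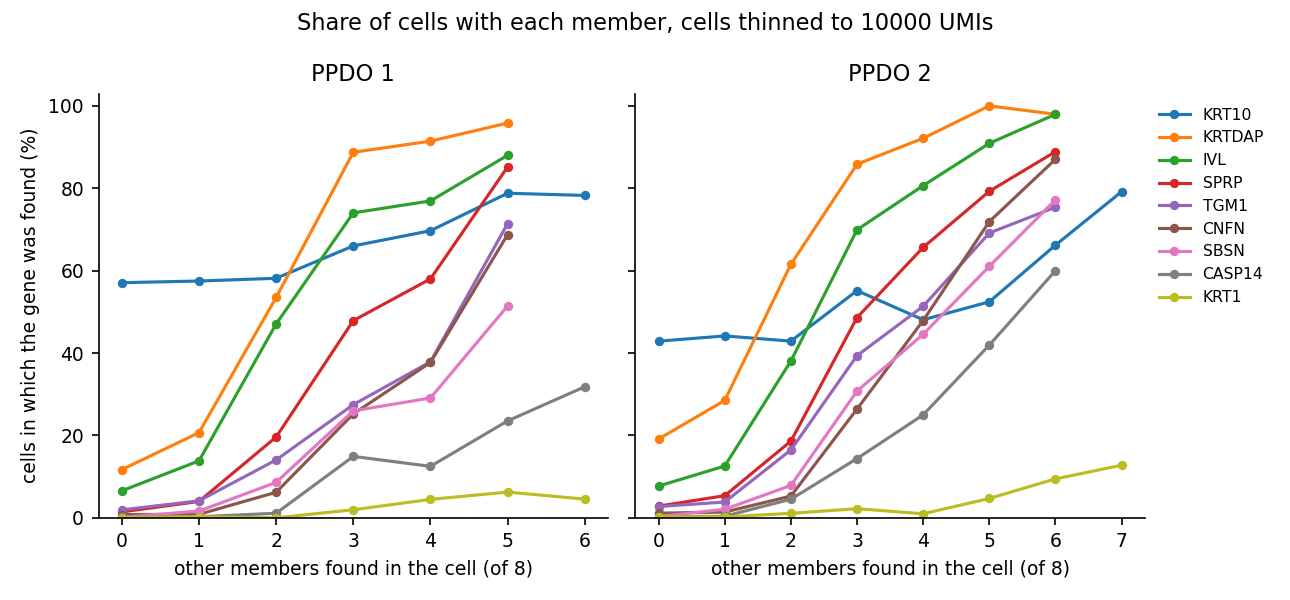
Percent of cells with each gene (vertical axis) by how many other members were found in the cell (horizontal axis), at 10000 UMIs per cell, for bins of at least 20 cells. KRT10 was not counted among the other members, so the 8 in the axis label holds for KRT10 alone. KRTDAP and IVL rise at 2 other members, to 53.5% and 47.1% in PPDO 1, CASP14 stays under 5% up to 2 others, and KRT10 starts highest, at 57.1% and 42.9%, and ends at 78.3% and 79.2%.

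Cells found alone differed between members. Leaving KRT10 aside, 67.1% of KRTDAP cells in PPDO 1 and 60.1% in PPDO 2 had no other member, and the median over all cells with KRTDAP was 1 UMI at this depth. The part of free RNA in such single UMIs was not tested. For IVL 53.9% and 39.2% of its cells had no other member, for TGM1 41.6% and 27.3%, and for SBSN 7.03% and 4.98%. SBSN had the lowest such share of the 9 genes in both libraries.

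Genes outside the group that followed it across PPDO cells were named by the Pearson correlation of log-scaled levels with the mean of the standardised members, over 8885 and 7337 cells and 12385 genes. Cells share libraries and depth, so the coefficients carry no p-value. DMKN, dermokine, whose gene lies between KRTDAP and SBSN, came first with 0.71 in PPDO 1 and 0.86 in PPDO 2. Then came SLPI (0.65 and 0.77), a secreted protease inhibitor, CYSRT1 (0.63 and 0.75), RDH12 (0.64 and 0.72), a retinol dehydrogenase, S100A8 (0.65 and 0.67), S100A12 (0.64 and 0.67), KRT23 (0.61 and 0.68), DSG1 (0.59 and 0.71), the desmoglein of upper epidermal layers, C16orf89 (0.58 and 0.70) and TPRG1 (0.56 and 0.71). Members themselves correlated with the mean of the other 8 at 0.66 and 0.71 for SBSN and 0.63 and 0.74 for KRTDAP, and less for KRT10 (0.28 and 0.35) and KRT1 (0.26 and 0.32).

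To compare cells with and without the programme within a library, PPDO cells in which at least 4 of the 9 genes were found at 10000 UMIs (member-rich) were set against cells with at most 1 (member-poor). There were 197 and 386 member-rich cells, which is 2.36% and 5.39% of the cells of PPDO 1 and PPDO 2, and 6963 and 5551 member-poor cells. Median depth differed little, at 37597 and 38692 UMIs in member-rich and 35000 and 34294 UMIs in member-poor cells. Cluster 4 held 84.8% and 83.4% of the member-rich cells. In PPDO 1, 22.9% of cluster 4 cells were member-rich and in PPDO 2 47.3%. The cut is a range and not a type of cell, as 191 and 218 cells lay 1 gene below it.

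UMI sums of both classes were compared with the edgeR quasi-likelihood test, with the library as a block and the 9 members left out of the genes tested. Of 20921 genes, 18.9% were called higher and 21.9% lower in member-rich cells at an FDR under 0.05. Of the 8535 genes called, 7920 had the same sign in both libraries on the CPM scale. When sums were scaled by total UMIs in place of TMM factors, a choice made after seeing the data, the median log2 difference of all genes moved from -0.12 to -0.42 and the higher genes fell from 46.4% to 21.9% of those called, so small differences depend on the scaling.

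Among called genes at 50 CPM or more in the class where they were higher and with 1 direction in both libraries, the largest increases were found for the following genes. SPINK5, the inhibitor of the skin kallikreins, was at 383 CPM in member-rich and 1.56 CPM in member-poor cells of PPDO 1 and at 220 and 0.853 CPM in PPDO 2 (log2 difference 8.28, SE 0.09, edgeR FDR 1.71e-35). DMKN was at 1023 and 5.45 CPM and at 1664 and 7.48 CPM (7.98, SE 0.08). SLPI was at 3621 and 22.2 CPM and at 3745 and 18.4 CPM (7.81, SE 0.07). KLK14, RDH12 and DSG1 followed with log2 differences of 7.63, 7.45 and 7.32. Within the same limits the largest decreases were those of CXCL14, a chemokine (12 against 224 CPM and 8.86 against 141 CPM, log2 difference -3.79, SE 0.09, edgeR FDR 7.05e-26), the collagen COL12A1 (-3.47), NRG1 (-3.42), the R-spondin receptor LGR6 (-3.42), CDON (-3.40) and ANTXR1 (-3.30). Inside cluster 4 alone CXCL14 was at 0.43 and LGR6 at 0.02, neither called, while COL12A1, NRG1, CDON and ANTXR1 were still called lower, at -1.79, -2.23, -1.12 and -1.52.

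Other envelope genes rose with the members. The gene lists read from here on were written with earlier results of these data known, so their counts and medians are a description and not independent support. Of the 23 listed structural genes only 5 were matched in the annotation and 3 could be tested, and all 3 were higher in member-rich cells. CSTA, cystatin A, was at 4315 against 581 CPM in PPDO 1 and at 3724 against 583 CPM in PPDO 2 (log2 difference 3.09, SE 0.05). The plakins EVPL and PPL, which anchor the envelope, differed by 2.81 and 1.5. Of 13 cross-linking and processing genes tested 5 were higher and 2 were lower, and scaled by total UMIs 5 were lower. PADI1, a peptidylarginine deiminase, was at 59.4 against 27.1 CPM and at 113 against 44.9 CPM (1.55, SE 0.08), whereas TGM2, tissue transglutaminase, was at 0.521 against 15.6 CPM and at 3.18 against 11.5 CPM (-2.25, SE 0.26). TGM3 and TGM5, the transglutaminases that work beside TGM1 in epidermis, were at no more than 1.62 CPM and did not pass this test. They are named here because of their values, which were seen first. TGM3 was called higher in PPDO as a whole than in ductal-like cells, at 0.595 and 0.675 CPM against 0.159 and 0.237 CPM. TGM5 was at 0.223 and 0.446 CPM against 0 and 0 CPM. It entered that comparison through PPDO alone and its SE could not be estimated, so nothing is read from its call.

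Of 8 further keratins of layered epithelium, 6 were higher and none was lower. KRT23 was at 1674 against 42.9 CPM and at 1783 against 49.5 CPM (log2 difference 5.53, SE 0.06). KRT77 was at 4.17 against 0.0857 CPM and at 15.3 against 0.111 CPM, and KRT80 differed by 2.51. KRT4, a keratin of inner-lining squamous epithelium, was at 16.2 against 12.3 CPM in PPDO 1 and at 46.7 against 3.06 CPM in PPDO 2 (2.66, SE 0.37), and it was not called with DESeq2 or without the library block.

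Junction and shedding genes also moved. Of 12 desmosome genes 10 were higher and 1, PKP2, was lower. PERP was at 2583 against 1269 CPM and at 3104 against 1290 CPM (1.45, SE 0.05), and DSC2 differed by 2.56, JUP by 1.68 and DSP by 1.48. Of 14 desquamation genes, the proteases and inhibitors that loosen the cornified layer, 13 were higher and the list median was 5.05 against -0.12 for all genes. SPINK5 and KLK7 of this list were also leading genes of cluster 4, which held most member-rich cells. KLK7 was at 597 against 5.73 CPM and at 1200 against 25.1 CPM (6.43, SE 0.14), and KLK10 was at 88.5 against 2.98 CPM and at 483 against 12.6 CPM (5.41, SE 0.09). SERPINB5, a serpin, differed less, at 258 against 207 CPM and at 263 against 204 CPM (0.65, SE 0.06). Of 16 lipid barrier genes 13 were higher and 2, ELOVL6 among them, were lower, with a median of 2.52. ABCA12, the lipid transporter of lamellar granules, was at 249 against 28.8 CPM and at 242 against 28.6 CPM (3.40, SE 0.07), and CYP4F22, which makes fatty acids for skin ceramides, differed by 3.67.

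S100 and annexin genes split by size of change. Of 10 tested, 8 were higher and S100A4 was lower, but S100A4 was not called with DESeq2 or without the library block and was at 0.07 with a cut at 3 members. S100A12 was at 16208 against 135 CPM and at 17697 against 302 CPM (log2 difference 6.70, SE 0.13), and S100A8 was at 5241 against 28.1 CPM and at 6359 against 99.0 CPM (7.07, SE 0.19). S100A2 was abundant in both classes, at 11017 against 8676 CPM and at 10054 against 8729 CPM (0.58, SE 0.04). Of 24 regulators of differentiation 16 were higher and 4 were lower, and scaled by total UMIs these counts were 12 and 7. PPARD differed by 0.99 and RORA by -1.35. TP63, the master factor of basal cells, was lower, at 376 against 575 CPM and at 305 against 627 CPM (-0.52, SE 0.07). The factors KLF5 and KLF4 were called higher by 0.28 and 0.32, but on the CPM scale KLF5 was lower in member-rich cells of PPDO 2 and KLF4 in those of PPDO 1.

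Basal and dividing-cell genes went the other way. Of 15 basal genes 14 were lower and 1 was higher, with a median log2 difference of -1.61. COL17A1, a hemidesmosome collagen, was at 204 against 725 CPM and at 181 against 719 CPM (-1.61, SE 0.06), KRT15 at 382 against 1139 CPM and at 357 against 1552 CPM (-1.55, SE 0.07) and the integrin ITGA6 at 285 against 725 CPM and at 276 against 887 CPM (-1.21, SE 0.06). The exception was KRT5, the basal type II keratin, at 13277 against 4796 CPM and at 16603 against 6607 CPM (1.70, SE 0.04). All 17 cell cycle genes tested were lower, with a median of -1.86, and 10 of 17 were called without the library block and 15 with DESeq2. TOP2A was at 0.652 against 24.7 CPM and at 4.18 against 42.4 CPM (-3.37, SE 0.18), and TYMS differed by -1.42. KRT5 was thus the basal gene that stayed high in cells with the envelope genes. Without the library block PADI1, TGM2, PKP2, ELOVL6, KLF4 and KLF5 were not called.

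**Figure D5:**
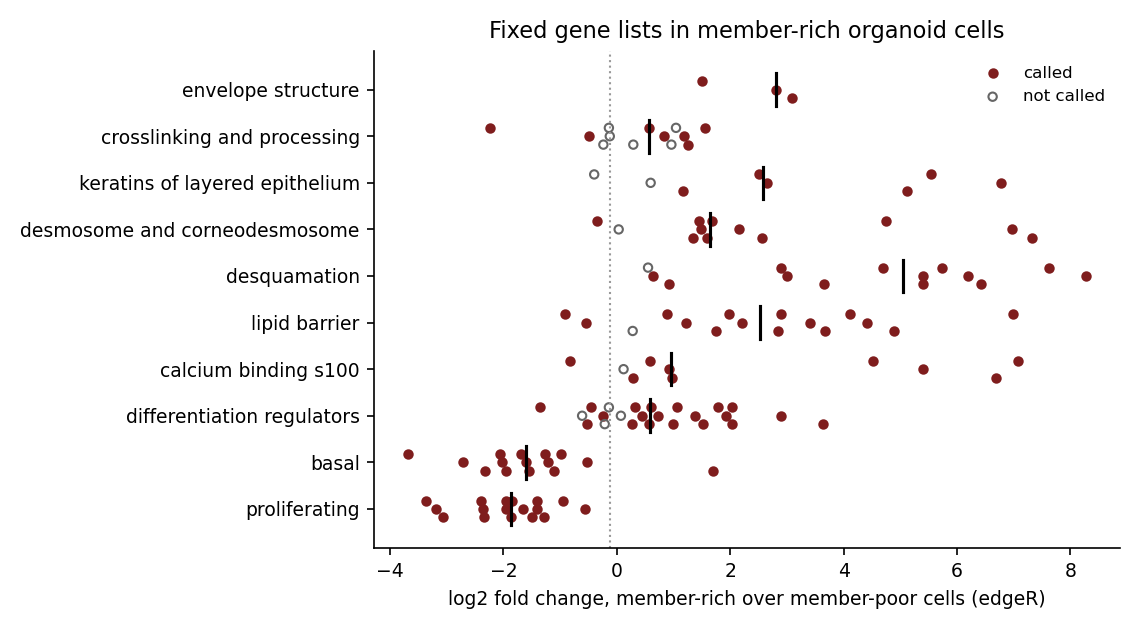
Log2 difference between member-rich and member-poor PPDO cells (edgeR, horizontal axis) for the genes of 10 lists (rows), 1 point per gene, filled where the FDR was under 0.05, with a black bar at each list's median and a dotted line at the median of all genes, -0.12. Desquamation genes lie farthest to the right (median 5.05), and basal and proliferating genes lie to the left except KRT5. The lists were written with earlier results of these data known.

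Some of these lists kept their direction inside cluster 4 alone, an alternative chosen after seeing the data. There 12.1% of 13135 genes were called higher and 12% lower. With 167 and 322 member-rich against 225 and 109 member-poor cells of that cluster, 12 of 15 basal genes were lower and 1 was higher. Lipid barrier genes had 13 of 15 higher and 1 lower, and 10 of 13 desquamation genes and 3 of 3 envelope genes were higher. Desmosome genes had 10 of 12 higher and 1 lower, and the further keratins 4 of 6 higher. Other lists did not keep their pattern there. Cell cycle genes had 2 of 12 lower and 1 higher, S100 and annexin genes 4 of 10 higher and 3 lower, regulators 7 of 24 higher and 5 lower and cross-linking genes 2 of 11 higher and 1 lower. S100A2 was at -0.33, RORA at 0.12 and PADI1 at 0.03 inside cluster 4.

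The same lists were also read in PPDO as a whole against primary ductal-like cells, where 22.8% of all genes were called higher and 20.9% lower. Called higher were 12 of 14 desquamation genes, 9 of 12 desmosome genes (1 lower), 8 of 10 S100 and annexin genes (1 lower), 13 of 15 basal genes (1 lower) and 13 of 17 cell cycle genes. In the other lists, 9 of 18 lipid barrier genes were higher and 3 lower, 7 of 14 cross-linking genes higher and 3 lower, 4 of 8 keratins higher and 1 lower and 13 of 24 regulators higher and 6 lower. The 7 cross-linking genes include TGM5, which had no UMI in ductal-like cells, and 1 desquamation gene tested also had no UMI in 1 of the groups. Of the 3 envelope genes tested CSTA was higher, while EVPL (0.46) and PPL (0.45) were not called. The cell cycle count was 3 without PPDO 2, 9 without PPDO 1 and 9 scaled by total UMIs, and the desquamation count was 7 without primary pancreas 1 and 6 without primary pancreas 2. Cross-linking genes called higher were 4 without PPDO 1 and 3 without PPDO 2, cross-linking genes called lower were 1 and regulators called lower were 3 without either, lipid barrier genes called lower were 0 without PPDO 1 and 1 without PPDO 2, and keratins called higher were 2 without PPDO 2 and 2 without primary pancreas 2. KRT5 was at 5420 and 7634 CPM in PPDO and at 0.342 and 0.276 CPM in ductal-like cells (log2 difference 14.78, SE 0.46, edgeR FDR 0.000324). CSTA was at 756 and 849 CPM against 0.273 and 0.631 CPM (11.35, SE 0.41), and PADI1 was at 30.8 and 54.7 CPM against 0 and 0.0394 CPM. Most basal genes were thus higher in organoids as a whole and lower in the organoid cells that held the cornified envelope genes.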

How the data were processed

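Single-cell RNA libraries of PPDO (2) and primary pig pancreas (2) were analysed from the UMI counts that the authors deposited per feature and barcode, together with the deposited barcode and feature tables. The submitters' processing notes name Cell Ranger and the build Sscrofa11.1, and the reads were counted against an in-house extended annotation. Of 56060 features, 25770 were extensions, and features were summed to 30282 genes. The study corrected for ambient RNA at a later stage, and no such correction was made to the counts analysed here. The study's own organoid thresholds were set per line, so PPDO cells were kept at 1000 to 9000 features and up to 3% mitochondrial UMIs in both libraries, and 600 features was an alternative. Primary cells were kept under 8% mitochondrial UMIs and under 9000 features, above 400 features (primary pancreas 1) or 800 features and 3000 UMIs (primary pancreas 2). Primary barcodes with a Scrublet score over 0.25 or 0.15 were left out, and in PPDO such removal (0.25) was an alternative.

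Cells were clustered with scanpy 1.11.5 and the Leiden algorithm (leidenalg 0.10.2, resolution 0.5, 20 components, 2000 variable genes, members left out in PPDO), and primary classes were named from marker lists. UMI sums per library were compared in R 4.3.3 with edgeR 4.0.16 (quasi-likelihood test, TMM, filterByExpr, Benjamini-Hochberg FDR under 0.05), and DESeq2 1.42.0 was an alternative. Both fits were run on simulated sums to check the code. Those sums were drawn independently with no shared library effect, so they do not check the FDRs given here. Intervals (95%) and the limit of 3 UMIs for a count of 0 cover counting error only. With 2 libraries a group, p-values between PPDO and ductal-like cells measure the spread between these libraries, with variances that edgeR pools in part over genes. The labels do not say that the libraries are separate cultures, while the study gives them as 2 organoid lines and 2 pigs. Member-rich and member-poor cells were taken from the same libraries by their member UMIs, so p-values between them describe these 2 libraries and not independent cultures. With the library as a block, 4 sums leave little to measure the spread of a single gene. The SEs and FDRs of that fit therefore rest largely on variances pooled over genes. Without the block 4266 in place of 8535 genes were called.

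Besides the members, the genes named were the 10 most alike across PPDO cells, the 6 with the largest difference in each direction among called genes at 50 CPM or more in the higher class and with 1 direction in both libraries, and for each list up to 4 called genes in each direction with the highest level. TGM3 and TGM5 fell outside that rule and were chosen after their values were seen. The members and lists were chosen with earlier results of these data known. Replicate numbers were not taken as pairs, since the deviations of PPDO 1 and primary pancreas 1 from their group means had a correlation of -0.011 over 23556 genes. Human organoids and bulk data were not analysed here, and some genes that the rule names are not reported here.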

Additional observations from a re-analysis of the deposited data

How the results depend on the processing

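The number of genes called between PPDO and ductal-like cells was 10287, and leaving out each library in turn gave between 4685 and 10657. Without PPDO 1 it was 5105 and without PPDO 2 it was 4685, the lone library then being taken to vary like the other group. With the replicate number as a block it was 8481. Between member-rich and member-poor cells 8535 genes were called, 4266 with no replicate block and 3159 within cluster 4, where fewer cells and genes were tested. The other alternatives for these counts gave between 6111 and 10337 for the member-rich comparison and between 9490 and 11041 for the ductal one. Scaled by total UMIs, 31.6% in place of 52.1% of the genes called between PPDO and ductal-like cells were higher. Within cluster 4 the log2 difference of CXCL14 became 0.43, HMGB2 0.41, LGR6 0.02, RORA 0.12, S100A2 -0.33 and ST14 -0.15. Scaled by total UMIs, KLF5 became -0.03, and with a cut at 3 members S100A4 became 0.07. As CPM ratios within 1 library, KLF4 ranged from -0.18 without PPDO replicate 2 to 0.19 without PPDO replicate 1, and KLF5 from -0.09 without PPDO replicate 1 to 0.03 without PPDO replicate 2. The cause was not tested. Of 108 alternative values of member levels and shares, 88 moved by less than the spread between libraries and 20 by more. Values with 1 of the 2 PPDO libraries left out are among the 88. They could not move by more than that spread, so they tell nothing of stability. The order of the 36 pairs by share at 10000 UMIs per cell held for 35 at full depth, an alternative chosen after seeing the data, and for 26 at full depth and equal abundance together.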
